A study of Mus musculus with 15 samples.

Results

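The genes that write, erase and protect methylated cytosine in DNA were followed in mouse embryonic stem cells (mESCs) and in the embryoid bodies (EBs) grown from them. The 10 genes were taken by symbol, as Dnmt1, Uhrf1, Dnmt3a, Dnmt3b, Dnmt3l, Tet1, Tet2, Tet3, Tdg and Zfp57, after the Ensembl IDs of the count tables had been matched to the GENCODE M21 annotation. All 10 were present among the 55471 gene IDs of each library, and all 10 passed the filter on low counts in each of the 4 comparisons between groups. The rule uses their symbols and no measured value, and the set was drawn up with earlier results of these data known.

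Poly(A) RNA was sequenced in 15 libraries, 3 in each of 5 groups, all from the E14 mESC line. The study asked what loss of NSD1, a methyltransferase for lysine 36 of histone H3, does to gene expression and differentiation. In the NSD1-dTAG knock-in line the NSD1 protein carries a degron tag, and dTAG-13, a degrader molecule, links such a tag to the cereblon ubiquitin ligase. The first group was EBs of the knock-in line that differentiated for 6 days with 500 nM dTAG-13 present, and the second was EBs of the same line and age with no dTAG-13. EBs are aggregates in suspension, here grown in serum medium without the inhibitors and LIF of the stem cell medium. The third group was nontreated NSD1-dTAG mESCs, the fourth was wild-type mESCs given 500 nM dTAG-13 for 72 h, and the fifth was nontreated wild-type mESCs. All mESCs grew in 2i/LIF medium, which holds them in a naive state. Both EB groups carry the knock-in, so dTAG-13 was compared in EBs within 1 line, and the labels do not say whether that line is 1 clone. EBs of wild-type cells and knock-in mESCs with dTAG-13 were not analysed here. By their titles the 3 libraries of a group are biological replicates, with nothing on separate cultures or days, so a p-value here covers the spread among these libraries, which may be technical.

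DNMT3A and DNMT3B add methyl groups to cytosines that stand before a guanine (CpG sites), and DNMT3L, which has no catalytic activity of its own, stimulates them. DNMT1 copies the mark to the new strand after replication, where UHRF1 recruits it. TET1, TET2 and TET3 oxidise methylated cytosine, TDG cuts out the oxidised bases, and ZFP57 binds methylated imprinting control regions and keeps them methylated. Naive mouse cells in 2i/LIF hold little DNA methylation, and the mark is laid down anew as cells of the epiblast leave that state around implantation. The PWWP domain of DNMT3A binds histone H3 methylated at lysine 36, the mark that NSD1 writes in its dimethyl form.

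CpG sites are the substrate of these enzymes, and the promoters of the genes themselves differ in how many they hold. The windows of 250 bases upstream of an annotated start are shown for the 3 genes of the de novo machinery and for Tet2 and Zfp57, the 2 genes with the largest falls in EBs against mESCs, with each CG in capitals. They come from RefSeq on GRCm38.p6, run 5′ to 3′ on the strand of the gene, and overlap no annotated exon of that gene. Exons of other genes were not checked. The windows lie at chr12:3806730-3806979 (plus strand, Dnmt3a), chr2:153649199-153649448 (plus strand, Dnmt3b), chr10:78049592-78049841 (plus strand, Dnmt3l), chr3:133544391-133544640 (minus strand, Tet2) and chr17:37000913-37001162 (plus strand, Zfp57).
Dnmt3a: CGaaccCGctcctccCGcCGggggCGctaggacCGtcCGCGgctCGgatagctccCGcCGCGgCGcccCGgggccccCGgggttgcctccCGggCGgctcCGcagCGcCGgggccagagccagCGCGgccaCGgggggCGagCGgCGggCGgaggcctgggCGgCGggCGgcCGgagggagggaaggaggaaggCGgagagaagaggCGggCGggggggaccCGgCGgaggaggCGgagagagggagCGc
Dnmt3b: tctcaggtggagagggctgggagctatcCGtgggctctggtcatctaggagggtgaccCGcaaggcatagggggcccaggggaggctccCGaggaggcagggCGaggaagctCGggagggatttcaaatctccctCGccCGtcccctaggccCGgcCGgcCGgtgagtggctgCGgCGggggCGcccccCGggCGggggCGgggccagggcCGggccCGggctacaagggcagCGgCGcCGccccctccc
Dnmt3l: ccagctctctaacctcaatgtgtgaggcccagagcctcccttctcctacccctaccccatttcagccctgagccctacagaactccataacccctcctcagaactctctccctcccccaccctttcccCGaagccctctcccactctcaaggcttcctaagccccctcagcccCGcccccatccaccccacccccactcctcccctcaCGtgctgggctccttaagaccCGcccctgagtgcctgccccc
Tet2: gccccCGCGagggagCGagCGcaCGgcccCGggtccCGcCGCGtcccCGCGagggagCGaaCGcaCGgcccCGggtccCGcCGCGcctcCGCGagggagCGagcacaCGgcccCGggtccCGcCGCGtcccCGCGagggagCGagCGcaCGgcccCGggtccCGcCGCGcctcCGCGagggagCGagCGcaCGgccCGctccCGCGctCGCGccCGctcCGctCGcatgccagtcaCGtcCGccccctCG
Zfp57: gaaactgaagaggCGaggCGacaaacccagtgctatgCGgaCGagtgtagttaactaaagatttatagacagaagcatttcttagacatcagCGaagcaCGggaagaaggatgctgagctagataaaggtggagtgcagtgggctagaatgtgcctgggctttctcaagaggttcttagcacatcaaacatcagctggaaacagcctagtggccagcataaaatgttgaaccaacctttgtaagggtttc

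The Tet2 window holds 51 CG pairs, more than 99.9% of 32851 RefSeq promoter windows of that length. The Dnmt3a window holds 38 and the Dnmt3b window 21, more than 98.1% and 83.7% of windows. The Dnmt3l window holds 4 and the Zfp57 window 6, where the median over all windows is 6. Some of these genes have other RefSeq starts, whose windows are not shown. For Dnmt3a the window at start 3807160 on chromosome 12 holds 40 CG pairs and that at 3891744 holds 15, more than 98.7% and 72.7% of windows. Other windows hold 5 and 3 CG pairs for Dnmt3l and 7 and 3 for Zfp57. The gene counts merge every start site, so transcripts from different starts were not told apart. No methylation was measured in these samples, and the letters alone do not say whether a promoter was methylated.

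Gene counts summed to between 18704591 and 29103958 per library. Library 1 of both nontreated mESC groups and library 3 of the other 3 groups stood apart from the other libraries of their groups. The mean exon length of a counted read's gene was 4.99 to 5.50 kb in these 5 libraries and 5.71 to 5.93 kb in the other 10, and ribosomal protein genes took 5.78% to 8.04% of their counts, against 4.76% to 5.37%. Tet1, Tet2, Tet3 and Dnmt1 were each lowest in that library in all 5 groups. Where leaving these 5 libraries out changed a call of the 10 genes or of Nsd1 described here, that is stated beside it. Calls of cell type markers and of single genes from other lists are given with all libraries. Naive stem cell markers (8 genes) summed to 2750 to 3521 CPM (the gene's counts scaled to a common library total) over the 9 mESC libraries, and the feeder fibroblast genes Dcn, Lum and Postn were at 0 in all of them. In the EBs the naive list summed to 255 to 588 CPM and the 7 markers of formative and primed epiblast to 854 to 1168 CPM, so the label of their cell type, which reads as stem cells, describes the source of the EBs.

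Nsd1 RNA does not check the degradation, since dTAG-13 acts on the protein. It had 329, 306 and 230 CPM in dTAG-13 EBs, against 261, 243 and 209 CPM in nontreated EBs. The groups overlapped, and the difference did not pass the test (log2 0.26, SE 0.14, edgeR adjusted p = 0.351). Without library 3 of both groups it was called higher with dTAG-13, at log2 0.32 (SE 0.07, edgeR adjusted p = 0.0157).

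**Figure D1:**
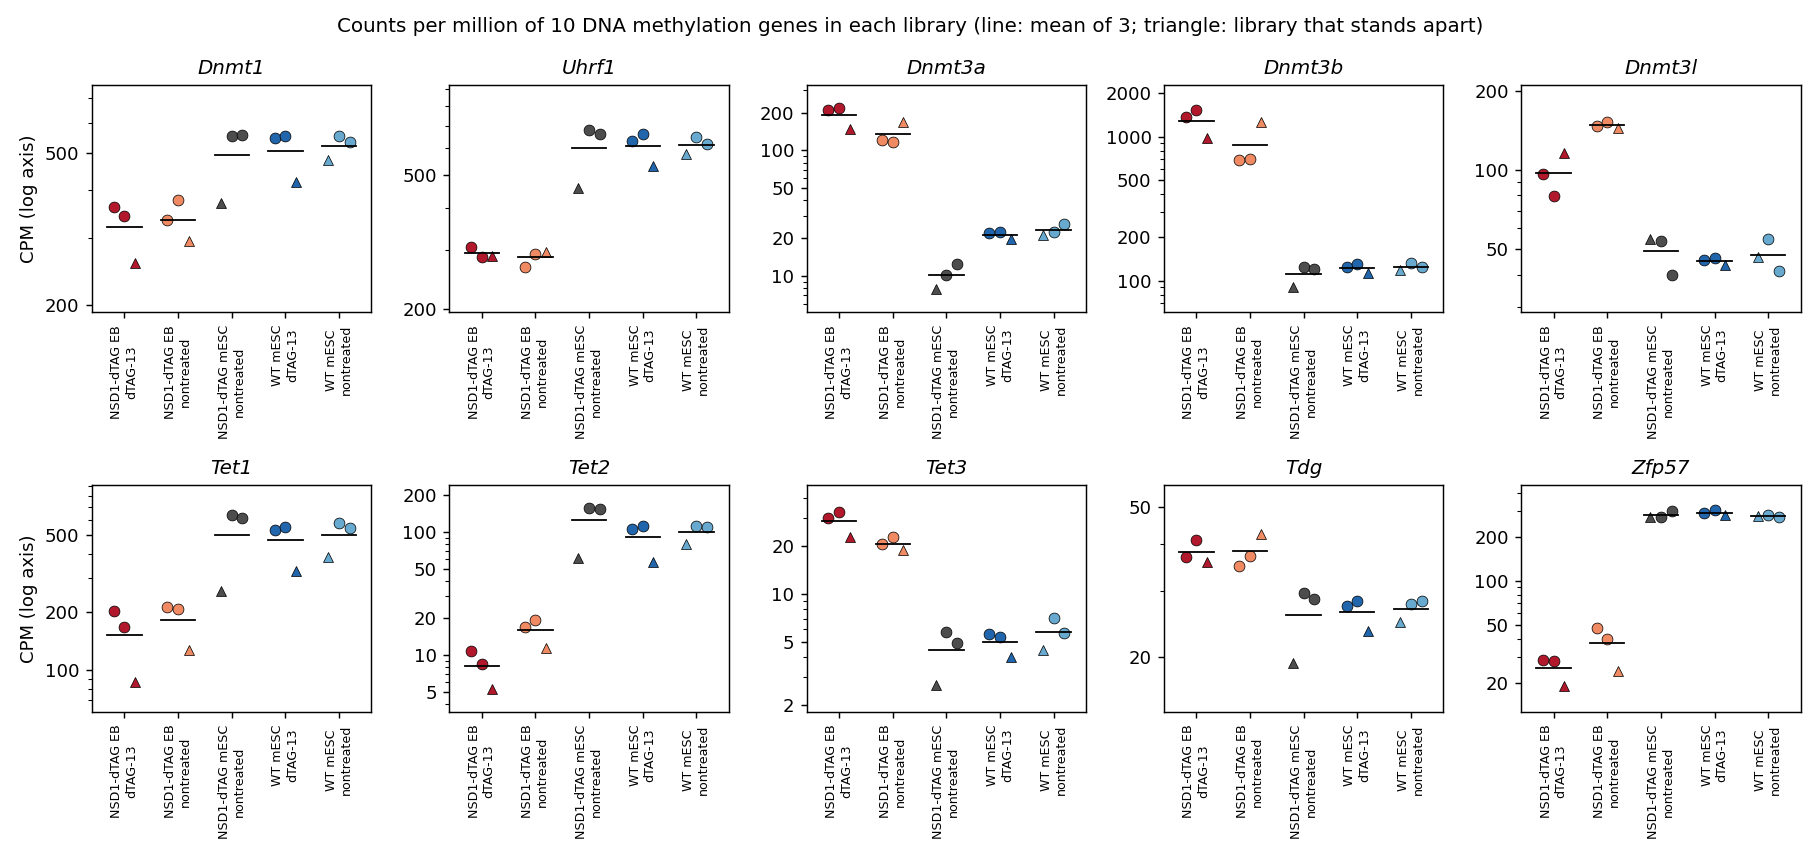
CPM of each gene in each library on a log axis, by group, with lines for the mean of 3 libraries and triangles for the libraries that stand apart. Dnmt3a, Dnmt3b, Dnmt3l and Tet3 are highest in EBs, and Tet1, Tet2, Zfp57, Dnmt1 and Uhrf1 are on average highest in mESCs, and the triangles of Tet1 and Tet2 lie lowest in every group.

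Levels of different genes were compared as CPM per kb of exon. In nontreated wild-type mESCs the order ran from Uhrf1 at 144 ± 8.32 through Zfp57 at 73.4 ± 1.18, Dnmt1 at 71.0 ± 5.14 and Tet1 at 32.5 ± 6.55 CPM per kb (SD, n = 3) to Dnmt3a at 1.40 ± 0.147 and Tet3 at 0.344 ± 0.0777 CPM per kb. Zfp57 overlapped Dnmt1 there, Tet1 overlapped Dnmt3b at 24.5 ± 1.37, and Tet2 at 5.94 ± 1.08 overlapped Tdg at 4.99 ± 0.348, while the other neighbours in the order did not overlap. The rank of every gene was the same in all 3 mESC groups. In both EB groups Dnmt3b stood first, at 252.8 ± 54.2 CPM per kb with dTAG-13 and 173 ± 63.6 without it, and Uhrf1 second, at 68.8 ± 2.56 and 66.96 ± 3.74. Tet2 stood last in both, at 0.483 ± 0.163 CPM per kb with dTAG-13 and 0.940 ± 0.246 without it. The summed level of Dnmt3a and Dnmt3b over that of the 3 Tet genes was 17.9, 23.5 and 27.5 in dTAG-13 EBs and 8.97, 8.99 and 25.7 in nontreated EBs, where library 3 lay within the dTAG-13 range. In the 9 mESC libraries that ratio lay between 0.490 and 0.948.

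The central comparison set dTAG-13 EBs against nontreated EBs. Dnmt3l fell 1.54-fold with dTAG-13 and was the only 1 of the 10 genes called in the edgeR fit without pairing, where 6.76% of 15236 genes tested were called. DESeq2 without pairing called Tet2 as well. In a fit that paired same-numbered libraries Tet2, Zfp57 and Dnmt3l fell and Tet3 rose, where 12% of genes were called, 6.87% higher and 5.17% lower. Dnmt3a and Dnmt3b, the catalytic enzymes, were higher with dTAG-13 in pairs 1 and 2 and lower in pair 3, and neither passed the test in either fit. The median absolute change of the 10 genes was log2 0.46, and that of all genes tested was 0.17. In bulk RNA of EBs, fewer cells of a type and less RNA per cell cannot be told apart.

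Among the writers, Dnmt3l, the stimulating partner, had 96.5, 79.8 and 116 CPM in dTAG-13 EBs, against 148, 152 and 144 CPM in nontreated EBs. All 3 dTAG-13 libraries lay below all nontreated ones. The fitted change was log2 -0.62 (SE 0.13, edgeR adjusted p = 0.034), and -0.64 (SE 0.11, edgeR adjusted p = 0.0201) with the pairs as a block. The call was kept in 9 of 14 alternatives and lost in the other 5, each of which left out 1 library (nontreated 1, 2 or 3, or dTAG-13 1 or 2), with adjusted p between 0.00123 (DESeq2) and 0.128 (edgeR) over all 14. Without library 3 of both groups its change was -0.78 (SE 0.09, edgeR adjusted p = 0.00132). Dnmt3l shares 67 bases of exon with Aire on the opposite strand, and the counted strand is not given in the sources used here. Aire had 209, 136 and 61 counts in dTAG-13 EBs and 257, 282 and 192 in nontreated EBs.

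Dnmt3b, the enzyme with the highest level in EBs, had 1360, 1526 and 986 CPM in dTAG-13 EBs, against 693, 696 and 1257 CPM in nontreated EBs. Libraries 1 and 2 were higher with dTAG-13, and the nontreated library 3 lay inside the dTAG-13 range. The change was log2 0.52 (SE 0.26, edgeR adjusted p = 0.299). Without library 3 of both groups it was 1.04 (SE 0.07, edgeR adjusted p = 0.00028). Dnmt3a had 211, 216 and 147 CPM in dTAG-13 EBs, against 122, 118 and 169 CPM in nontreated EBs, again with library 3 in the opposite order. Leaving out nontreated library 3 alone gave 0.88 for Dnmt3b (SE 0.18, edgeR adjusted p = 0.0286), and leaving out any other single library gave no call. The Dnmt3a change was log2 0.47 (SE 0.19, edgeR adjusted p = 0.198), and 0.82 (SE 0.06, edgeR adjusted p = 0.0003) without library 3 of both groups. That choice drops the pair in which both genes were lower with dTAG-13. Library 3 was singled out from these same data, so the fits without it are no independent test.

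Neither maintenance gene passed the test. Dnmt1 had 361, 342 and 258 CPM in dTAG-13 EBs, against 333, 376 and 295 CPM in nontreated EBs (log2 -0.08, SE 0.14, edgeR adjusted p = 0.799). Uhrf1 had 305, 285 and 288 CPM in dTAG-13 EBs, against 267, 292 and 297 CPM in nontreated EBs (log2 0.02, SE 0.09, edgeR adjusted p = 0.936). Both genes overlapped between the groups and were called in none of 14 alternatives.

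Of the erasers, Tet2 had 10.8, 8.36 and 5.29 CPM in dTAG-13 EBs, against 16.9, 19.4 and 11.3 CPM in nontreated EBs. The groups did not overlap, and every pair was lower with dTAG-13. The change was log2 -0.98 (SE 0.27, edgeR adjusted p = 0.0759) without pairing and -1.0 (SE 0.14, edgeR adjusted p = 0.0126) with it. Unpaired, Tet2 was also called by DESeq2 (log2 -0.98, adjusted p = 0.00555) and by edgeR without the filter on low counts (adjusted p = 0.0103), and not by limma-voom (adjusted p = 0.0765). Tet3 differed in the other direction, with 30.2, 33.0 and 22.9 CPM in dTAG-13 EBs, against 20.5, 22.7 and 18.8 CPM in nontreated EBs, where the lowest dTAG-13 library was just above the highest nontreated one. Its change was log2 0.45 (SE 0.15, edgeR adjusted p = 0.113) without pairing and 0.44 (SE 0.09, edgeR adjusted p = 0.0349) with it. Of the single libraries, leaving out nontreated library 3 brought Tet2 past the threshold unpaired (log2 -1.17, edgeR adjusted p = 0.0404), and leaving out dTAG-13 library 3 did so for Tet3 (log2 0.59, edgeR adjusted p = 0.0244). Groups without overlap, found for Dnmt3l, Tet2 and Tet3 here, were seen for 27.4% of all genes tested.

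Tet1, the most abundant of the family, had 203, 167 and 87.4 CPM in dTAG-13 EBs, against 212, 208 and 127 CPM in nontreated EBs, with overlap between the groups (log2 -0.27, SE 0.30, edgeR adjusted p = 0.671). Tdg, which excises the oxidised bases, had 36.8, 40.9 and 35.8 CPM in dTAG-13 EBs, against 34.8, 37.2 and 42.4 CPM in nontreated EBs (log2 -0.03, SE 0.11, edgeR adjusted p = 0.916). Neither was called in any alternative. Zfp57, the protector of imprints, had 28.7, 28.3 and 18.8 CPM in dTAG-13 EBs, against 47.7, 39.7 and 24.1 CPM in nontreated EBs. It was lower with dTAG-13 in every pair, although nontreated library 3 fell among the dTAG-13 values. The change was log2 -0.57 (SE 0.25, edgeR adjusted p = 0.229) without pairing and -0.55 (SE 0.09, edgeR adjusted p = 0.0201) with it. Without nontreated library 3 alone the unpaired change was -0.80 (SE 0.19, edgeR adjusted p = 0.0482). Without library 3 of both groups 3 genes were higher (Dnmt3a, Dnmt3b and Tet3) and 3 lower (Dnmt3l, Tet2 and Zfp57) with dTAG-13, where 20.9% of all genes were called, 10.7% higher and 10.2% lower.

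**Figure D2:**
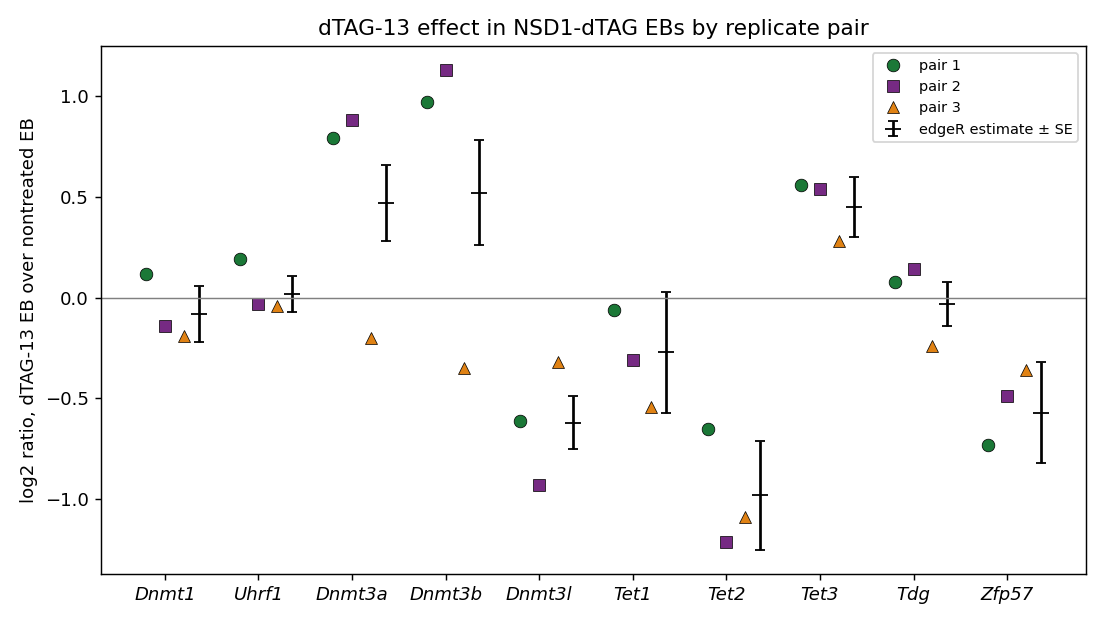
Log2 ratio of dTAG-13 over nontreated EBs for each replicate pair (symbols) and the edgeR estimate without pairing with its SE (bars). Dnmt3l, Tet2 and Zfp57 lie below 0 and Tet3 above 0 in all 3 pairs, while pair 3 of Dnmt3a and Dnmt3b lies below 0 and pairs 1 and 2 above it.

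Markers of cell types differed between the same EB groups. Of all 15236 genes tested between these groups, 3.98% were called higher with dTAG-13 and 2.78% lower. The 6 primitive streak and mesoderm markers summed to 59.9, 129 and 37.5 CPM in dTAG-13 EBs, against 584, 962 and 322 CPM in nontreated EBs, and 5 of the 6 were called lower. The 8 naive markers summed to 255 to 361 CPM with dTAG-13 and 378 to 588 CPM without it, with 4 called lower. None of the 7 formative and primed epiblast markers was called by edgeR or limma-voom, 1 was by DESeq2 and 3 had an unadjusted edgeR p below 0.05, and their sums were 854 to 1168 CPM with dTAG-13 and 1002 to 1070 CPM without it. Of the 10 extraembryonic endoderm markers 1 was lower. Their sums were 224, 180 and 581 CPM with dTAG-13, against 446, 380 and 479 CPM without it. Libraries 1 and 2 with dTAG-13 lay below all nontreated ones, and library 3, which stands apart, lay above them. Dab2 and Cubn had 252 and 215 CPM of the sum in that library. Gata4, Sox7, Apoa1, Ttr, Dab2 and Cubn were there above all nontreated libraries, and Sox17 and Afp lay among them. Foxa2 and Gata6 were below all nontreated libraries in every dTAG-13 library. Of the trophoblast markers 1 of 4 tested was lower. Their list summed to 367, 343 and 596 CPM with dTAG-13, against 756, 563 and 340.1 CPM without it, with library 3 in the opposite order. Krt8 and Krt18 made up most of these sums, at 168, 158 and 299 CPM and at 197, 183 and 292 CPM with dTAG-13. Cdx2, Elf5 and Gata3 reached at most 0.386, 0.0373 and 4.79 CPM with dTAG-13, against at most 11.8, 0.320 and 6.05 CPM without it. Cdx2 was lower with dTAG-13 in library 3 as well. No list had a defining marker at 0 in every library of either EB group except the feeder list, where Lum was at 0 with dTAG-13. Elf5 of the trophoblast list was close to that, at 0, 0.0373 and 0 CPM with dTAG-13. The part of these cell types in the values of the methylation genes was not tested.

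The largest differences separated nontreated EBs from nontreated NSD1-dTAG mESCs. ERCC spike-in counts were present in the mESC libraries and absent from the EB libraries, and the medium differed too. Cell state, medium and library preparation therefore cannot be told apart here. Of the 10 genes 9 were called, 4 higher and 5 lower in EBs, where 59.5% of 15193 genes tested were called, 33.1% higher and 26.3% lower. The median absolute change of the 10 genes was log2 1.84, and that of all genes tested was 0.61. Each of the 9 was called in all 14 alternatives, and Tdg in 1 of 14. Without the libraries that stand apart the same 4 were higher and the same 5 lower, where 73.2% of all genes were called, and the changes ran from -3.24 for Tet2 to 3.27 for Dnmt3a, with Dnmt3b at 2.37.

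All 3 members of the de novo machinery were higher in EBs. Dnmt3a had 122, 118 and 169 CPM in EBs, against 7.90, 10.25 and 12.4 CPM in NSD1-dTAG mESCs, a 12.2-fold rise (log2 3.60, SE 0.21, edgeR adjusted p = 3.45e-06). Dnmt3b had 693, 696 and 1257 CPM in EBs, against 90.8, 124 and 121 CPM in NSD1-dTAG mESCs, a 7.16-fold rise (log2 2.84, SE 0.26, edgeR adjusted p = 3.70e-05). Dnmt3l had 148, 152 and 144 CPM in EBs, against 54.4, 53.5 and 40.0 CPM in NSD1-dTAG mESCs (log2 1.44, SE 0.15, edgeR adjusted p = 6.32e-05). None of the 3 overlapped between the groups, and 66.3% of all genes tested did not overlap in this comparison. Of the maintenance genes, Uhrf1 had 267, 292 and 297 CPM in EBs, against 459, 679 and 664 CPM in NSD1-dTAG mESCs (log2 -1.21, SE 0.15, edgeR adjusted p = 0.000207). Dnmt1 had 333, 376 and 295 CPM in EBs, against 369.9, 555 and 560.4 CPM in NSD1-dTAG mESCs (log2 -0.71, SE 0.17, edgeR adjusted p = 0.007). Uhrf1 did not overlap between the groups, and Dnmt1 did, through NSD1-dTAG mESC library 1, which stands apart.

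The Tet genes moved in opposite directions. Tet1 had 212, 208 and 127 CPM in EBs, against 256, 636 and 612 CPM in NSD1-dTAG mESCs (log2 -1.60, SE 0.34, edgeR adjusted p = 0.00382). Tet2 had 16.9, 19.4 and 11.3 CPM in EBs, against 61.9, 158 and 156 CPM in NSD1-dTAG mESCs, an 8.65-fold fall (log2 -3.11, SE 0.37, edgeR adjusted p = 0.000147). Tet3, which in mouse acts on the paternal genome of the zygote, had 20.5, 22.7 and 18.8 CPM in EBs, against 2.68, 5.79 and 4.93 CPM in NSD1-dTAG mESCs, a 4.22-fold rise (log2 2.08, SE 0.25, edgeR adjusted p = 0.000163). No Tet gene overlapped between the groups. Zfp57 had 47.7, 39.7 and 24.1 CPM in EBs, against 273, 274 and 299.7 CPM in NSD1-dTAG mESCs, an 8.39-fold fall (log2 -3.07, SE 0.24, edgeR adjusted p = 1.46e-05). Tdg had 34.8, 37.2 and 42.4 CPM in EBs, against 19.3, 29.6 and 28.4 CPM in NSD1-dTAG mESCs, without overlap and without passing the test (log2 0.42, SE 0.17, edgeR adjusted p = 0.0562). This comparison uses the nontreated EBs that the dTAG-13 comparison also uses.

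Nontreated NSD1-dTAG mESCs differed from nontreated wild-type mESCs in 1 of the 10 genes, Dnmt3a, where 1.86% of 13895 genes tested were called. Dnmt3a had 7.90, 10.25 and 12.4 CPM in NSD1-dTAG mESCs, against 21.3, 22.3 and 26.0 CPM in wild-type mESCs, so that all 3 knock-in libraries lay below all wild-type ones. It was 2.2-fold lower in the knock-in line (log2 -1.14, SE 0.16, edgeR adjusted p = 0.0265), and with the pairs as a block the change was -1.15 (SE 0.10, edgeR adjusted p = 0.00405), where 5.65% of genes were called and 3.55% were lower. Groups without overlap were seen for 23% of genes here. Against all 6 wild-type libraries, with or without dTAG-13, the change was -1.07 (SE 0.13, edgeR adjusted p = 0.00091). The call was kept in 10 of 16 alternatives and lost in 5 of the 6 that left out 1 library (wild-type 1, 2 or 3, or NSD1-dTAG 2 or 3), where its log2 change lay between -1.29 and -1.05 and edgeR adjusted p between 0.069 and 0.145. It was also lost with scaling to the spike-ins, at -1.22 (SE 0.36, edgeR adjusted p = 0.446). Without NSD1-dTAG library 1 it was kept, at -1.0 (SE 0.11, edgeR adjusted p = 0.000717).

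The other 9 genes did not pass the test, with log2 changes between -0.32 for Tet3 and 0.37 for Tet2. The median absolute change of the 10 genes was log2 0.09, beside 0.13 for all genes. Dnmt3b had 90.8, 124 and 121 CPM in NSD1-dTAG mESCs, against 119, 133 and 124 CPM in wild-type mESCs (log2 -0.11, SE 0.12, edgeR adjusted p = 0.795). Tet2 had 61.9, 158 and 156 CPM in NSD1-dTAG mESCs, against 79.3, 112 and 110.0 CPM in wild-type mESCs, higher in pairs 2 and 3 and lower in pair 1 (log2 0.37, SE 0.34, edgeR adjusted p = 0.751). Without NSD1-dTAG library 1 alone the Tet2 change was 0.68 (SE 0.12, edgeR adjusted p = 0.0061), and without library 1 of both groups it was 0.53 (SE 0.04). Without library 1 of both groups, 4 of the 10 genes were called, with Tet1, Tet2 and Uhrf1 higher and Dnmt3a lower, where 22.7% of all genes were called, 11.5% higher and 11.2% lower.

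dTAG-13 was also given to wild-type mESCs, which carry no degron tag. No gene of 13784 was called by edgeR, which is 0% of those tested, with 229 at an unadjusted p below 0.05. Neither of the other 2 tools called a gene, and 81 genes under DESeq2 and 243 under limma-voom had an unadjusted p below 0.05. Without the libraries that stand apart 16 genes (0.115%) were called, none of them among the 10. The log2 changes of the 10 genes lay between -0.20 for Tet3 and 0.07 for Zfp57, with standard errors between 0.06 and 0.24. Dnmt3l had 45.3, 46.1 and 43.6 CPM with dTAG-13, against 46.8, 54.5 and 41.4 CPM without it. Dnmt3a had 22.1, 22.4 and 19.6 CPM with dTAG-13, against 21.3, 22.3 and 26.0 CPM without it. Tet2 had 106, 112 and 57.3 CPM with dTAG-13, against 79.3, 112 and 110.0 CPM without it. In all 3 of these genes the dTAG-13 and nontreated libraries overlapped. Zfp57 was the only one of the 10 whose groups did not overlap, with 289, 304 and 284 CPM with dTAG-13 and 278, 282 and 274 CPM without it, where 6.06% of genes did not overlap. Wild-type nontreated mESCs serve in this comparison and in that with the knock-in line.

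**Figure D3:**
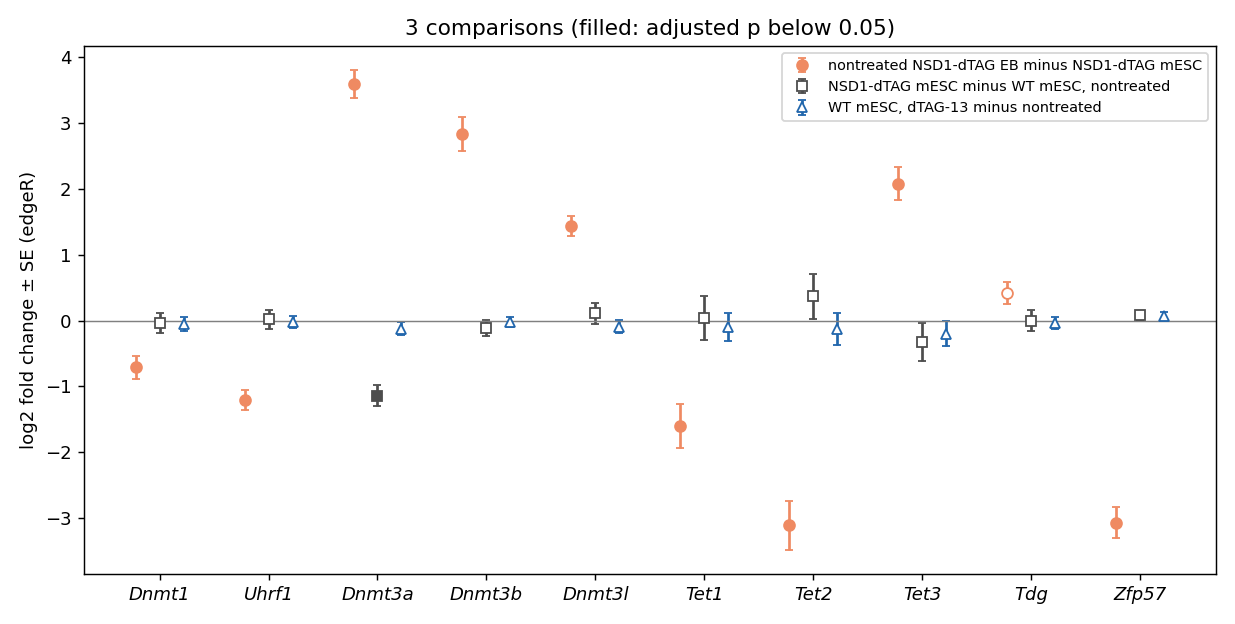
Log2 fold change with its SE (edgeR) of each gene in nontreated EBs against NSD1-dTAG mESCs (circles), in NSD1-dTAG against wild-type mESCs (squares) and in wild-type mESCs with dTAG-13 against without (triangles), filled where adjusted p was below 0.05. Filled circles reach from -3.11 for Tet2 to 3.60 for Dnmt3a, the only filled square is Dnmt3a at -1.14, and no triangle is filled.

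Whether the dTAG-13 effect in EBs differed from that in wild-type mESCs was tested as an interaction over 12 libraries. None of the 10 genes passed in edgeR or DESeq2, where 2.88% of 15855 genes were called. The differences were log2 -0.54 for Dnmt3l (SE 0.18, edgeR adjusted p = 0.156), -0.85 for Tet2 (SE 0.39, edgeR adjusted p = 0.334) and 0.65 for Tet3 (SE 0.25, edgeR adjusted p = 0.234). For Dnmt3a the difference was 0.58 (SE 0.23, edgeR adjusted p = 0.242), and for Dnmt3b 0.54 (SE 0.30, edgeR adjusted p = 0.439). Single libraries changed these calls: without nontreated EB library 3 Dnmt3a, Dnmt3b and Zfp57 passed, and without dTAG-13 EB library 3 Dnmt3l did. In these fits 763 of 16218 and 621 of 16247 genes were called. At an unadjusted p below 0.05 the edgeR fit held 5 of the 10 genes, beside 2363 of all 15855. Without the filter on low counts 5 passed (Dnmt3a, Dnmt3b, Dnmt3l, Tet2 and Zfp57), with Tet2 at -0.88 (SE 0.17, edgeR adjusted p = 4.62e-05). There 915 of 30609 genes were called in all. With the pairs as a block Zfp57 passed, at -0.62 (SE 0.12, edgeR adjusted p = 0.0219), where 3% of genes were called and 1.37% were lower. That block also paired the wild-type mESC libraries by number, although their deviations from the group means correlated at -0.52, 0.44 and -0.44. Without the libraries that stand apart, a choice made after seeing the data, 3 of the 10 genes passed as higher (Dnmt3a, Dnmt3b and Tet3) and 3 as lower (Dnmt3l, Tet2 and Zfp57), where 11.9% of genes were called, 5.83% higher and 6.03% lower. The tag, the cell state and the time of treatment differ together between these arms and cannot be told apart.

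Within the families, shares were taken per kb of exon. Tet2 made up 4.10%, 3.73% and 4.27% of the Tet sum in dTAG-13 EBs, against 6.28%, 7.21% and 6.70% in nontreated EBs. Tet3 made up 11.6%, 14.9% and 18.7% in dTAG-13 EBs, against 7.71%, 8.53% and 11.3% in nontreated EBs. For both genes the shares did not overlap, and the exact two-sided permutation p was 0.1, the smallest that 3 against 3 libraries allow (0.2 adjusted over 24 tests). Tet1 held 77.1% to 84.3% of the sum in dTAG-13 EBs and 82.0% to 86.0% in nontreated EBs. In mESCs Tet2 averaged 18.4% ± 0.403 in the NSD1-dTAG line, 14.9% ± 0.977 in wild-type cells with dTAG-13 and 15.4% ± 0.374 in nontreated wild-type cells (SD, n = 3 each). Unlike its CPM, the Tet2 share in NSD1-dTAG library 1, at 18.0%, lay close to the 18.4% and 18.8% of libraries 2 and 3. Between NSD1-dTAG and nontreated wild-type mESCs the Tet2 shares did not overlap, with the same exact p of 0.1.

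Dnmt3b held 85.6%, 88.3% and 80.2% of the Dnmt3 sum in dTAG-13 EBs, against 70.5%, 70.2% and 80.8% in nontreated EBs, and Dnmt3l held 10.4%, 7.89% and 16.1%, against 25.7%, 26.1% and 15.9%. Library 3 of both groups met in the middle, and neither share reached the smallest p (exact two-sided permutation p = 0.2 each). In NSD1-dTAG mESCs Dnmt3b averaged 56.0% ± 6.95 and Dnmt3l 42.4% ± 7.28 (SD, n = 3). Dnmt3a held no more than 4.07% of the Dnmt3 sum in any library. This share depends on the length used, since Dnmt3a has 16.6 kb of exon and a longest transcript of 9.69 kb. The Tet2 shares have the same limit, with 16.9 kb of exon and a longest transcript of 9.18 kb. Shares of these 2 genes with other lengths are not given here.

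**Figure D4:**
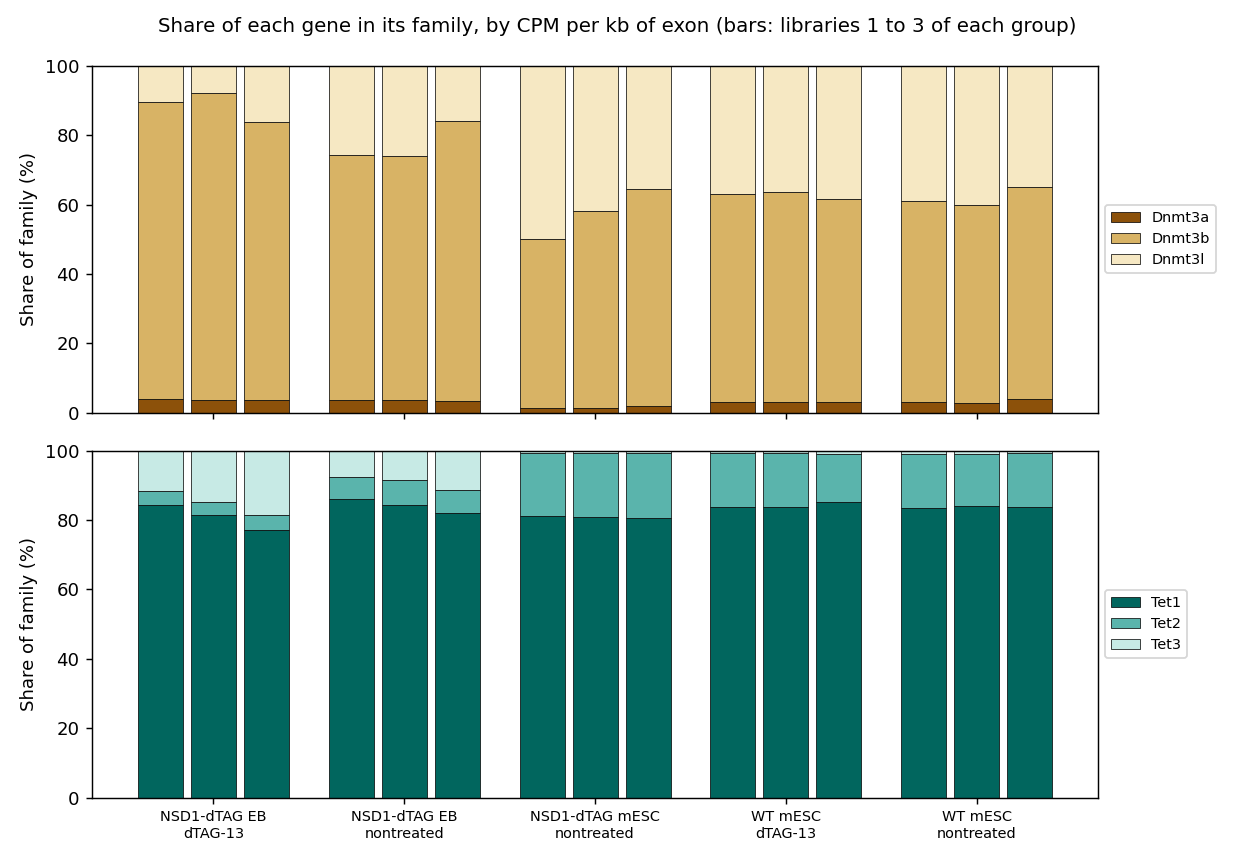
Share of each gene in the summed CPM per kb of its family, in percent, with 1 bar per library (libraries 1 to 3 from left to right in each group). Tet2 holds 3.73% to 4.27% in dTAG-13 EBs, against 6.28% to 7.21% in nontreated EBs, and Dnmt3l reaches 50.0% in NSD1-dTAG mESC library 1.

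Genes around this machinery were read from 7 lists of 84 genes in all. In dTAG-13 against nontreated EBs 3 were higher and 4 lower, where 3.98% of all genes were higher and 2.78% lower. Without library 3 of both groups 9 were higher and 9 lower, beside the 10.7% and 10.2% of all genes. Neil2, a DNA glycosylase of base excision repair, had 9.89, 9.18 and 10.9 CPM with dTAG-13, against 3.77, 3.31 and 3.61 CPM without it (log2 1.47, SE 0.15, edgeR adjusted p = 0.00391). Smug1, a glycosylase for uracil, was lower (log2 -0.50, SE 0.11, edgeR adjusted p = 0.037). Of 12 repair genes 10 did not pass. Lig1, the ligase of Okazaki fragments, was the only one of 7 maintenance partners that passed (log2 -0.39, SE 0.09, edgeR adjusted p = 0.0355).

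Nanog, a pluripotency factor that binds TET proteins, had 215, 244 and 191 CPM with dTAG-13, against 336, 385 and 349 CPM without it (log2 -0.74, SE 0.11, edgeR adjusted p = 0.0112). Dppa4, which with its partner Dppa2 keeps some CpG-rich promoters free of methylation, had 90.01, 75.2 and 85.9 CPM with dTAG-13, against 59.8, 56.0 and 56.2 CPM without it (log2 0.53, SE 0.10, edgeR adjusted p = 0.0208). These were 2 of 13 regulators. Mbd1, a methyl-CpG binding protein, was higher (log2 0.50, SE 0.12, edgeR adjusted p = 0.0455), 1 of 9 readers. Tdh, the threonine dehydrogenase that feeds S-adenosylmethionine synthesis in mESCs, was lower (log2 -0.83, SE 0.09, edgeR adjusted p = 0.00568), 1 of 17 genes of methyl donor and 2-oxoglutarate supply. Leaving out library 3 of both groups gave 2 regulators higher and 3 lower, and 1 reader higher and 1 lower. Of the supply genes 1 was then higher and 3 were lower. None of 15 silencing partners passed in the unpaired edgeR fit (1 at an unadjusted p below 0.05), none with DESeq2 or limma-voom, and 1 with the pairs as a block. Of 11 enzymes that set or remove the histone marks read by the DNMT3 proteins, 0 passed in edgeR with or without the block, 0 at an unadjusted edgeR p below 0.05 and 0 with DESeq2 or limma-voom. Without library 3 of both groups 2 of these 11 enzymes and 2 of the 15 silencing partners were higher with dTAG-13, and none was lower in edgeR.

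In nontreated EBs against NSD1-dTAG mESCs 20 of the 84 genes were higher and 29 lower, beside the 33.1% and 26.3% of all genes. Without the libraries that stand apart 25 were higher and 46 lower, beside 38.4% and 34.8%. Of the 17 supply genes 2 were higher and 10 lower, with a list median of log2 -0.53 beside 0.02 for all genes. With the libraries that stand apart left out, 1 supply gene was higher and 14 were lower. Tdh had 124, 135 and 135 CPM in EBs, against 492, 446 and 437 CPM in NSD1-dTAG mESCs, and Idh1, which makes 2-oxoglutarate in the cytosol, had 78.0, 73.2 and 86.5 CPM, against 273, 238 and 237 CPM. Among the readers Uhrf2, the paralog of Uhrf1, had 153, 173 and 128 CPM in EBs, against 19.1, 22.5 and 24.5 CPM in NSD1-dTAG mESCs (log2 2.63, SE 0.15, edgeR adjusted p = 2.84e-06). Its direction was opposite to that of Uhrf1. Zbtb38, a zinc finger reader, fell (log2 -2.48, SE 0.17, edgeR adjusted p = 8.10e-06) and Zbtb4 rose (log2 2.15, SE 0.22, edgeR adjusted p = 6.12e-05).

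Cdca7l of the maintenance list rose (log2 2.19, SE 0.14, edgeR adjusted p = 5.27e-06), as did the H3K9 methyltransferase Suv39h1 (log2 1.79, SE 0.10, edgeR adjusted p = 3.12e-06) and Nsd2, a paralog of Nsd1 (log2 1.36, SE 0.16, edgeR adjusted p = 0.000151). Prdm14, which represses Dnmt3b in naive cells, had 11.2, 13.1 and 5.43 CPM in EBs, against 35.2, 38.4 and 38.0 CPM in NSD1-dTAG mESCs (log2 -2.05, SE 0.28, edgeR adjusted p = 0.000347). Cxxc4, a CXXC-domain protein known to lower TET2 protein, had 4.59, 6.77 and 7.81 CPM in EBs and at most 0.0407 CPM in NSD1-dTAG mESCs, too few counts for a fold change. In NSD1-dTAG against wild-type mESCs none of the 83 list genes tested was higher in edgeR, DESeq2 or limma-voom (2 at an unadjusted edgeR p below 0.05) and 3 were lower in edgeR, where 0.547% and 1.32% of genes were. Without library 1 of both groups 11 were higher and 16 lower in edgeR, beside the 11.5% and 11.2% of all genes. The 3 called with all libraries were Uhrf2 (log2 -0.68, SE 0.11, edgeR adjusted p = 0.0381), Cdca7l (-1.07, SE 0.09, edgeR adjusted p = 0.0109) and Gldc of the glycine cleavage system (-0.74, SE 0.11, edgeR adjusted p = 0.0327). Uhrf2 had 19.1, 22.5 and 24.5 CPM in NSD1-dTAG mESCs, against 36, 33.8 and 40.1 CPM in wild-type mESCs.

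The genes whose pattern was most like that of the Dnmt3 genes were sought by Pearson correlation of log2(CPM + 1) over the 15 libraries among 12052 genes. The libraries share their cell state within a group, so these values describe the split of EBs from mESCs above all. For Dnmt3a they were Gtf2i (r = 0.995), Hs6st2 (0.994) and Lin28b (0.994). For Dnmt3b they were Jph4 (0.997), Sall2 (0.997) and Map7d3 (0.996). For Dnmt3l they were Plppr3 (0.991), Pax6 (0.981) and Pdgfra (0.978). Sall2, a zinc finger transcription factor, had 55.3, 61.4 and 40.5 CPM in dTAG-13 EBs, against 23.9, 25.7 and 39.8 CPM in nontreated EBs, and was chosen by its correlation over these same libraries. Pax6, a transcription factor of the neural and eye lineages, had 2.66, 2.13 and 2.36 CPM in dTAG-13 EBs, against 6.93, 5.91 and 6.32 CPM in nontreated EBs, without overlap between the groups. It was chosen in the same way, by its correlation with Dnmt3l, whose own EB groups did not overlap. Among all genes tested, 27.4% did not overlap between the EB groups.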

How the data were processed

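Each library came as a table of raw read counts per gene that the authors deposited without normalisation. Upstream, bcl2fastq 2.20.0.422, STAR (no version) and DESeq2 1.30.0 appear in the submitters' processing notes, beside mm10 and GRCm38.p6 as builds. Per the labels' protocols, ERCC Mix 1 RNA was added and poly(A) libraries were made with a directional kit. The counted strand was not given in the sources used here, nor was the annotation release. Dnmt3a, Dnmt3l, Tet2 and Tdg share 133, 67, 43 and 367 bases of exon with an antisense neighbour, and annotated pseudogenes of Dnmt3a, Dnmt3l and Tdg could take or give reads, so counts of these genes are uncertain to that extent.

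Of 55471 gene IDs, 55230 matched GENCODE M21 and the other 241 held at most 0.002% of a library. The 92 ERCC entries stayed out of library sizes. They held 0.292% to 0.496% of counts in mESC libraries and 0 in EB libraries. The main test was edgeR 4.0.16 under R 4.3.3 (quasi-likelihood F test, TMM, filterByExpr, Benjamini-Hochberg adjustment, call at an adjusted p below 0.05) on the libraries of the groups compared, or 12 libraries for the interaction. CPM values are counts over the library total, without TMM. Levels between genes and family shares divide by the union of exons in kb. Shares were tested by exact permutation. The fits were also run on simulated counts with the same spread for every gene and no libraries that stand apart. That run therefore does not cover the spread of these libraries.

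Alternatives were the replicate block, DESeq2 1.42.0, limma-voom from limma 3.58.1, DESeq2 size factors, no low count filter, 1 fit of all 15 libraries, a gene length offset with the block, ERCC scaling, each library left out, and the 5 libraries that stand apart left out. No label says what a replicate number stands for. Libraries of the same number deviated together from their group means, with correlations of 0.26, 0.36 and 0.40 between the EB groups and at 0.78, 0.51 and 0.50 between NSD1-dTAG and wild-type mESCs, so the numbers were taken as pairs there. The highest correlation with a library of another number was 0.26, 0.08 and -0.20 in the EBs, equal to that of pair 1, and -0.51, 0.45 and 0.42 in the mESCs, close to those of pairs 2 and 3, so the pairing is a hint from the data. Between the other groups some correlations were negative (-0.29 and -0.41 for EBs with mESCs, -0.52 and -0.44 for the wild-type groups), and the numbers were not taken as pairs. The block was still run there as an alternative, and the block of the interaction paired the wild-type libraries by number. No 2 libraries of a group agreed within sampling noise.

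The 10 genes and the lists were chosen with earlier results of these data known. The text names all 10 genes, Nsd1, the 3 genes most like each Dnmt3 gene with a mean CPM of at least 1.0, and of each list up to 3 called genes with the largest change, of which Neil3, Apex1, Smug1, Dppa3, Smchd1, Pclaf, Pcna, Kdm2b, Nsd3, Nanog and Shmt2 in EBs against mESCs were left out for length.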

Additional observations from a re-analysis of the deposited data

Results flagged for a closer look

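In the interaction over 12 libraries, the effect of dTAG-13 differed between NSD1-dTAG EBs and wild-type mESCs for 4 of the 84 list genes, where 2.88% of all genes were called. All 4 are among the 7 list genes called in dTAG-13 against nontreated EBs, which is 1 arm of the same interaction, so a high share among those 7 follows from how they were chosen. For Neil2 the difference was log2 1.15 (SE 0.19, edgeR adjusted p = 0.00752), with log2 1.47 in EBs and 0.31 in wild-type mESCs. Tdh differed by -0.88 (SE 0.12, edgeR adjusted p = 0.00235), with -0.83 in EBs and 0.03 in wild-type mESCs. Nanog differed by -0.77 (SE 0.14, edgeR adjusted p = 0.0142), with -0.74 and 0.02. Lig1 differed by -0.44 (SE 0.10, edgeR adjusted p = 0.0274), with -0.39 and 0.04. In each of these genes all 3 dTAG-13 EB libraries lay on one side of all 3 nontreated EB libraries. The same held for 27.4% of all genes tested, and these 4 were chosen by calls on the same libraries, so it adds no support. The degron tag, the cell state and the treatment time differ together between the arms and cannot be told apart.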

How the results depend on the processing

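No called value of the 10 genes changed its sign under any alternative, while 69 of 555 uncalled values did. In dTAG-13 against nontreated EBs, 1030 genes were called, and 1834 with the replicate block, 1625 with DESeq2, 1931 in 1 fit of all 15 libraries, 1833 with the gene length offset and the replicate block, 3233 without the libraries that stand apart and 182 to 1293 with 1 library left out. Of the 10 genes, 1 was called, and 4 with the replicate block (Dnmt3l, Tet2, Tet3 and Zfp57), with or without the length offset, 2 with DESeq2 or without a low count filter, 6 without the libraries that stand apart and 0 to 3 with 1 library left out. Of the list genes 7 were called, and 11 with the replicate block, 12 with the length offset added, 18 without those libraries and 2 to 9 with 1 left out. In NSD1-dTAG against wild-type mESCs 259 genes were called, and 785 with the replicate block, 528 with DESeq2, 500 in 1 fit of all libraries, 1361 with the length offset and the block, 3123 without the libraries that stand apart, 1 with ERCC scaling, 1150 against all 6 wild-type libraries and 1 to 1248 with 1 left out. There 1 of the 10 genes was called, and 2 with the length offset and the block, 4 without the libraries that stand apart, 0 with ERCC scaling and 0 to 2 with 1 left out. Of the list genes 3 were called, and 8, 27, 0 and 7 with the length offset and the block, without those libraries, with ERCC scaling and against all 6 wild-type libraries, and 0 to 10 with 1 left out. Counts for nontreated EBs against NSD1-dTAG mESCs stayed within 1.5 times, at 7718 to 10169 genes and 9 of the 10 genes with 1 library left out. In wild-type mESCs 16 genes were called with dTAG-13 without the libraries that stand apart, none of the 10 among them. For the interaction 456 genes and 0 of the 10 were called, with 781 genes under DESeq2, 915 genes and 5 of the 10 without a filter, 1 of the 10 with the replicate block, 1897 genes and 6 of the 10 without the libraries that stand apart (chosen after seeing the data), and 202 to 763 genes and 0 to 3 of the 10 with 1 left out. Its list genes numbered 4, with 8 under DESeq2 and 16 without those libraries. With the longest transcript in place of all exons the Tet1 share differed by 5.99 points in place of 3.16 in EBs against NSD1-dTAG mESCs, and by -3.87 in place of -2.83 in NSD1-dTAG against wild-type mESCs. Without length division the Dnmt3b share differed by 9.69 points in place of 17.8 in EBs against NSD1-dTAG mESCs. Leaving libraries out removes samples, and the cause of the other shifts was not tested. Outside the comparisons where numbers pair, the replicate block changed no call of the 10 genes in EBs against mESCs or in wild-type mESCs. Depth limits Tet3 in mESCs most, with 78 counts in 1 NSD1-dTAG library.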
